A study of Drosophila melanogaster with 37 samples.

Results

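MSL3 occupancy was followed in cells given dsRNA against GAF (the GAGA factor, product of trl) and in cells given dsRNA against GFP, the control. The libraries were assigned by their labels and no library was left out: every MSL3 precipitation with a peak list under GAF RNAi (3 libraries, replicates 1 to 3) and under GFP RNAi (4 libraries, replicates 1 to 4), 7 of the 37 samples of the series. All of the cells were S2 cells, a male Drosophila melanogaster line, and all had received 4.5 ug/mL of dsRNA before formaldehyde crosslinking, sonication and precipitation with a goat antibody against MSL3. The series profiles CLAMP, GAF and MSL3 under several knockdowns, and the comparison addresses whether MSL3 was found at the same regions when GAF was the target of RNAi. The labels do not say whether replicates came from separate cultures, so p-values measure the spread between these libraries, which may be technical.

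The MSL complex is the dosage compensation machinery of Drosophila males. It binds the single male X chromosome, acetylates histone H4 at lysine 16 and raises transcription of X-linked genes, and MSL3 is the chromodomain subunit through which the complex spreads from strong entry sites onto the bodies of active genes. Recruitment at entry sites depends on CLAMP, which recognises GA repeats through zinc fingers, and GAF recognises similar GAGA elements at many promoters.

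The lists hold called regions with a fold enrichment and no read counts, so sequencing depth is unknown. Counted on X, 4, 2L, 2R, 3L and 3R in build dm3, the lists of GAF RNAi replicates 1 to 3 held 33316, 22922 and 18519 regions, and those of GFP RNAi replicates 1 to 4 held 26306, 10572, 668 and 31717. Few regions passed a q value of 0.05 in their own library, namely 223, 335 and 0 in GAF RNAi replicates 1 to 3 and 143, 6, 0 and 4 in GFP RNAi replicates 1 to 4. The control library of replicate 4 stood apart from the other 3 control libraries, sharing 0 X regions with them at equal list length, and group differences are therefore given with and without it. In the deposited lists, GAF itself was not shown to be depleted. GAF precipitations labelled GAF RNAi (replicates 1 and 2) held 4220 and 18267 peaks against 29233, 3543 and 2676 under GFP RNAi. Of the 3219 GAF sites called in at least 2 GFP RNAi libraries, they called 81.5% and 68.3%. The GFP RNAi libraries, which helped define these sites, called 99.0%, 98.4% and 76.6%. For GAF RNAi replicate 3 there was no GAF list, and GAF RNAi below names the labelled treatment. Because the gene tables at hand belong to another genome release and no dm3 sequence was used here, regions are given by dm3 position without gene names.

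In the strongest MSL3 regions, the share lying on X was as high in GAF RNAi replicate 1 as in control cells and was lower in replicates 2 and 3. To compare lists of such unequal length, the 668 regions of highest fold enrichment were taken from each library, since the shortest list, that of GFP RNAi replicate 3, has 668. Among them, X carried 46.3% in GAF RNAi replicate 1 (exact 95% interval 42.4 to 50.1), 20.4% in replicate 2 (17.4 to 23.6) and 9.73% in replicate 3 (7.59 to 12.2), where intervals cover counting error only. In GFP RNAi replicates 1 to 4 these shares were 46.0%, 62.6%, 43.4% and 10.9%. The groups overlapped, because GAF RNAi replicate 1 lay above control replicates 1 and 3, and because control replicate 4 was close to GAF RNAi replicate 3. Up to the last base called on each arm, X makes up 18.6% of the 6 arms, so control replicate 4 and GAF RNAi replicate 3 carried a smaller X share than its length.

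The mean X share was 25.4% ± 18.8 after GAF RNAi (SD, n = 3) and 40.7% ± 21.6 under GFP RNAi (SD, n = 4), a difference of −15.3 percentage points. This was within the spread of the libraries (exact two-sided permutation p 0.457, where 4 against 3 libraries can give no p below 0.0571; adjusted over the 8 measures tested, 0.686). Without control replicate 4 the control mean was 50.6% ± 10.4 (SD, n = 3) and the difference −25.2 points (exact permutation p 0.3, smallest possible 0.1, adjusted 0.6). The X share fell off at different depths. Of the 10 strongest regions 10, 9 and 5 were on X in GAF RNAi replicates 1 to 3, and 10, 10, 10 and 3 in the control libraries. Of the 50 strongest, 50, 37 and 15 were on X after GAF RNAi against 49, 50, 49 and 9. Among 200 regions the GAF RNAi libraries had 176, 88 and 30 on X, and control replicates 1 to 4 had 176, 197, 188 and 27.

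**Figure D1:**
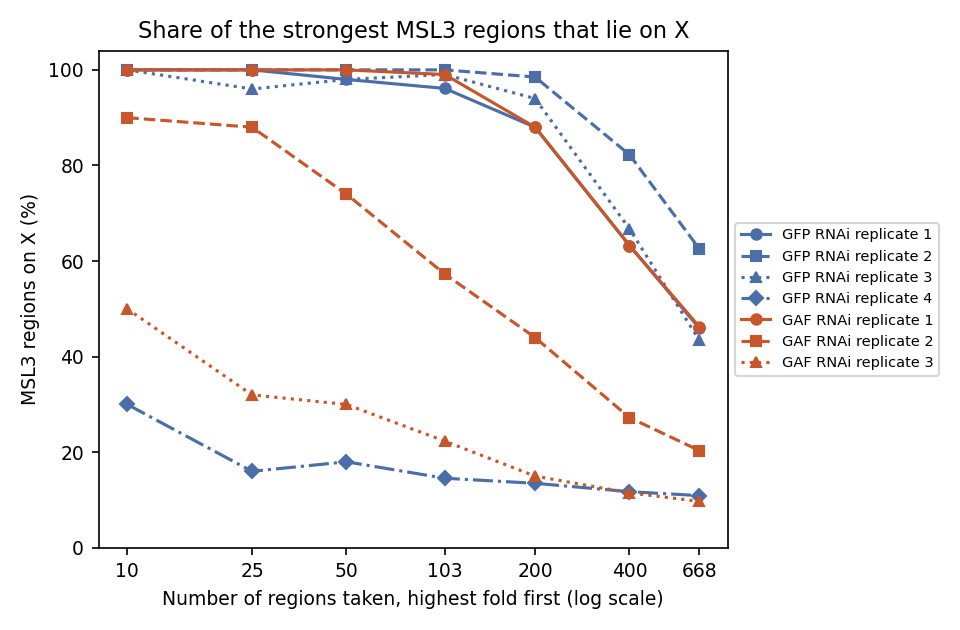
Percentage of MSL3 regions on X (vertical axis) among the strongest regions of each library, plotted against the number of regions taken in order of fold enrichment (log scale). Lines are single libraries, blue for GFP RNAi and orange for GAF RNAi; GAF RNAi replicate 1 runs with control replicates 1 to 3, replicate 2 falls from 90% to 20.4%, and replicate 3 from 50% to 9.73%, near control replicate 4.

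Within a list, X regions also ranked less far above autosomal regions after GAF RNAi than in control replicates 1 to 3. The measure is the percentage of all pairs of an X and an autosomal region in which the X region has the higher fold, so that 50% means no preference and the scale of fold in a library drops out. It was 81.2%, 74.8% and 63.2% in GAF RNAi replicates 1 to 3. In GFP RNAi replicates 1 to 4 it was 82.9%, 85.0%, 91.1% and 54.5%. All 3 GAF RNAi values thus lay below those of control replicates 1 to 3, although that of replicate 1 did so by a small margin, and control replicate 4 lay below them all. The means were 73.1% ± 9.11 (SD, n = 3) and 86.3% ± 4.24 without control replicate 4 (SD, n = 3), a difference of −13.2 points (exact permutation p 0.1, the smallest possible, adjusted over 8 measures 0.6). With all 4 control libraries the means differed by −5.28 points (exact permutation p 0.571, adjusted 0.686). The difference was −1.04 points when only control replicate 3, whose equal list is its whole list, was left out (exact permutation p 0.9). In lists of 69 regions, limited to a −log10 p of at least 2, its sign turned (14.5 points, exact permutation p 0.4, and 18.8 points without control replicate 4, exact permutation p 0.667). Control replicate 2 and GAF RNAi replicate 1 then held no autosomal region and dropped out, and 98.6% of the regions of control replicates 1 and 3 were on X.

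X regions of control replicates 1 to 3 were still called after GAF RNAi, but further down the list in replicates 2 and 3. Merging the 7 equal lists gave 3495 regions, of which 435 were in at least 2 lists, 304 of these on X and 131 on autosomes. The 304 X reference regions had a median width of 3938.5 bp. The rule ignores group, but the groups did not supply the set equally. Of the 304, 259 were in lists of both groups, 44 in control lists alone and 1 in GAF RNAi lists alone, so a lower recovery after GAF RNAi is partly set by the choice of regions. GAF RNAi replicates 1 to 3 called 251, 116 and 54 of them (82.6%, 38.2% and 17.8%). Control replicates 1 to 4 called 258, 287, 223 and 0 (84.9%, 94.4%, 73.4% and 0%, where 0 of 304 is a count in the strongest 668 regions only). GAF RNAi replicate 1 was in the range of control replicates 1 to 3, and the other two were below it. The means of 46.2% ± 33.1 (SD, n = 3) and 63.2% ± 43.0 (SD, n = 4) differed by −17.0 points (exact permutation p 0.629, adjusted over 8 measures 0.686). Without control replicate 4 the difference was −38.0 points (exact permutation p 0.2, smallest possible 0.1, adjusted 0.6).

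A narrower set of 190 X regions was in the equal lists of all of control replicates 1 to 3, 142 of them (74.7%) with a CLAMP site and no GAF site, 31 (16.3%) with both and 17 (8.95%) with neither. These 190 were picked for being called in those controls, so only the libraries not used for the choice bear on them. The equal lists of GAF RNAi replicates 1 to 3 held 186, 96 and 52 of the 190. In their whole lists all 190, then 186 and 172 were called (100%, 97.9% and 90.5%). Control replicate 4 held 0 in its equal list and 117 (61.6%) in its whole list. In whole lists of GAF RNAi replicates 1, 2 and 3 the called regions had a median rank of 101.5 of 33316, 592.5 of 22922 and 2941.5 of 18519, or the top 0.305%, 2.58% and 15.9%. In control replicate 4 the median rank was 15870 of 31717, the middle of the list. Whole lists of all 7 libraries reached down to a −log10 p between 1.00 and 1.01, so a call there can be weak. A long list also meets more regions by position alone, and the depth behind list length is unknown.

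**Figure D2:**
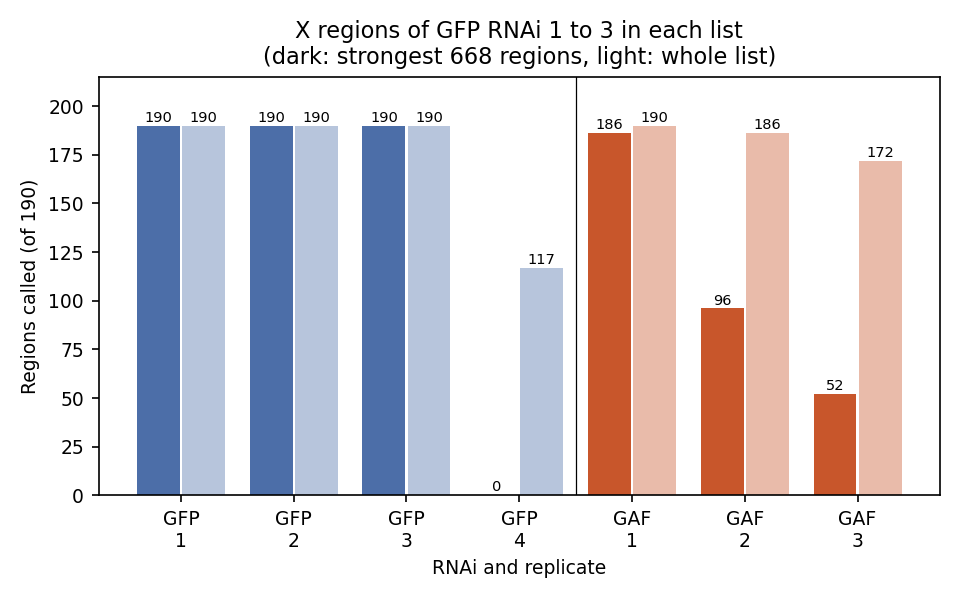
Number of the 190 X regions shared by GFP RNAi replicates 1 to 3 (vertical axis) that each library called in its strongest 668 regions (dark bars) and in its whole list (light bars). The 3 controls on the left hold all 190 by construction; GAF RNAi replicates 2 and 3 hold 96 and 52 in the dark bars and 186 and 172 in the light bars.

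Most X regions of the GAF RNAi lists lay at positions called in control replicates 1 to 3. Of the 283 merged X regions of GAF RNAi replicate 1, 82.3%, 85.5% and 66.1% were also X regions of control replicates 1, 2 and 3. Of the 130 merged X regions of GAF RNAi replicate 2, 83.1%, 85.4% and 75.4% were also X regions of control replicates 1, 2 and 3, and of the 62 of replicate 3, 83.9%, 87.1% and 87.1% were. Among control replicates 1 to 3 themselves, a list shared between 56.9% and 91.5% of its X regions with another. Seen from the control lists, GAF RNAi replicate 2 held 37.0%, 29.4% and 41.7% of their X regions and replicate 3 held 17.8%, 14.3% and 23.0%. GAF RNAi replicates 2 and 3 shared 21 X regions with each other, 16.2% of the former and 33.9% of the latter. Control replicate 4 shared 0 X regions with any of the other 6 lists. Autosomal regions were barely shared at all. The largest overlap between 2 lists was 30 autosomal regions, of control replicate 3 and GAF RNAi replicate 2, which is 8% and 5.65% of theirs. In all 3 GAF RNAi lists together, 21 regions recurred, all of them on X and all of them also in control replicates 1 to 3. Of these 21, 15 held a CLAMP site without a GAF site and 6 held sites of both factors, as did 142 and 31 of the 190 they belong to.

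The 10 X regions of best mean fold rank in control replicates 1 to 3 show how single regions fared; having been chosen for their control ranks, they could hardly rank higher elsewhere. At the head was X 12804138 to 12805858, a CLAMP site without GAF, which ranked 1 in each of control replicates 1 to 3, with folds of 3.28, 3.84 and 2.82. It ranked 1, 65 and 42 in GAF RNAi replicates 1 to 3, with folds of 3.55, 2.42 and 2.48. The next, X 15693718 to 15696327, ranked 6, 7 and 9 in those controls, 6 and 9 in GAF RNAi replicates 1 and 2, and was absent from the equal list of replicate 3. In the third place X 1971000 to 1976267, which holds sites of both CLAMP and GAF, ranked 22, 2 and 2 in controls, 37 in GAF RNAi replicate 1 and 74 in replicate 3, and was absent from replicate 2. All 10 regions were in the list of GAF RNAi replicate 1, between ranks 1 and 41, and none was in that of control replicate 4. GAF RNAi replicate 2 held 5 of the 10 and replicate 3 held 7, and only X 19633804 to 19638434 and X 12654549 to 12655494 were missing from both. Region X 2234314 to 2238657 kept a high rank in all, at 29, 9 and 6 in controls and 41, 64 and 7 after GAF RNAi.

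**Figure D3:**
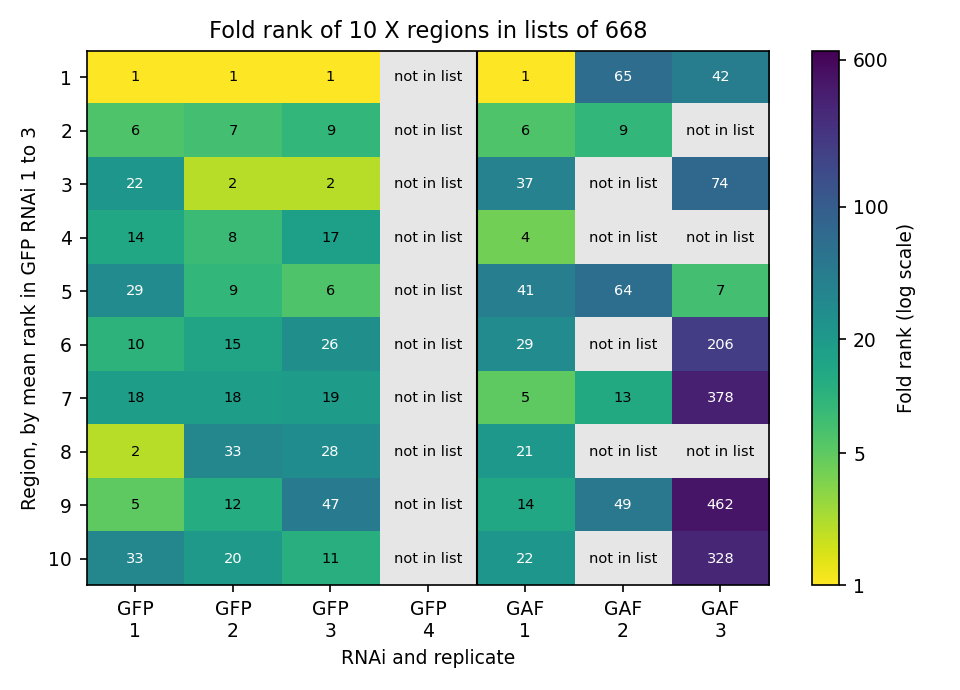
Fold rank (cell number and colour, log scale) of the 10 X regions of best mean rank in GFP RNAi replicates 1 to 3 (rows, in that order) in the equal lists of the 7 libraries (columns). Grey cells mark regions outside the strongest 668; ranks stay between 1 and 41 in GAF RNAi replicate 1, while replicates 2 and 3 hold 5 and 7 of the 10.

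Ranked over the 3 GAF RNAi libraries instead, the best 10 regions were again all on X, and 3 of them were among the control 10. The first was X 16250211 to 16252386, a CLAMP site without GAF, at ranks 31, 25 and 23 after GAF RNAi and 63, 32 and 52 in control replicates 1 to 3. It was the 1 region that ranked higher in every GAF RNAi list than in every control list, as 0.23% of the 435 regions did. Only the 21 regions present in all 3 GAF RNAi lists could do so. X 3843070 to 3848853, with sites of both factors, was the strongest region of GAF RNAi replicate 2, at a fold of 3.28, and stood at 116 and 102 in replicates 1 and 3 and at 98, 83 and 139 in controls.

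In the other direction 32 of the 435 regions (7.36%) ranked lower in every GAF RNAi list than in each of control replicates 1 to 3, with an absent region counted as below the list. All 32 were on X and their median width was 6726 bp. Of the 32, 24 held a CLAMP site and no GAF site and 6 a GAF site, close to the split of the 190 X regions they were drawn from. Since 190 of the 191 regions present in all of control replicates 1 to 3 lie on X, autosomal regions could hardly be counted here, and the 10.5% of X regions cannot be read against the 0% of autosomal ones. Those 191 regions could rank lower throughout, whereas only 21 could rank higher throughout. The 7.36% therefore cannot be read against the 0.23% of regions that ranked higher. With control replicate 4 included, 0 regions ranked lower throughout, which was fixed in advance for X. That library called 0 of the 304 X reference regions, so none of them could rank lower in another list. The largest fall was at X 16691154 to 16695945, from ranks 12, 52 and 7 to rank 72 in GAF RNAi replicate 1 and absence in replicates 2 and 3. At X 11467972 to 11478798 the ranks were 8, 308 and 40 in controls and 341 in GAF RNAi replicate 1, and at X 5558436 to 5565781 they were 57, 21 and 60 against 94, and both were absent from GAF RNAi replicates 2 and 3. No region was in the equal lists of all 4 controls and of no GAF RNAi library, nor the converse (0 of 3495, 0%). For X the count of lost regions was fixed, because control replicate 4 shared 0 X regions with the other controls. Without control replicate 4 the lost regions were 3 of 3495 (0.0858%), each with a CLAMP site and no GAF site like most of the 190, at X 21256215 to 21258943, X 1918268 to 1928522 and X 11592698 to 11595898, and gained regions were still 0.

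Broad X regions of MSL3 were narrower in GAF RNAi replicates 2 and 3 than in control replicates 1 and 2, and autosomal regions were wider. In the equal lists the median width on X was 3122 bp in GAF RNAi replicate 1, 1734 bp in replicate 2 and 1802 bp in replicate 3. In control replicates 1 to 4 it was 2707, 2580, 954 and 154 bp. On autosomes the medians were 274, 743 and 628 bp after GAF RNAi and 277, 350.5, 407.5 and 187 bp in control. GAF RNAi replicate 1 matched control replicate 1 on both counts, and the groups overlapped for X and for autosomes. X held 87.7%, 30.7% and 19.1% of the bases in the GAF RNAi lists, against 87.2%, 90.8%, 70.0% and 8.0% in the control lists. This share depends on the number of X regions as well as on their width. Over all arms the median width was 729, 860 and 669.5 bp after GAF RNAi and 633, 1230, 532.5 and 181.5 bp in control. Their means of 753 ± 97.5 and 644 ± 436 bp differed by 109 bp (SD, n = 3 and 4, exact permutation p 0.686, adjusted over 8 measures 0.686), and by −45.7 bp without control replicate 4 (exact permutation p 1, adjusted 1).

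At the same X regions the widths could be set side by side. In the 186 regions shared by GAF RNAi replicate 1 and control replicates 1 to 3, the bases called had a median of 4325.5 bp in GAF RNAi replicate 1 and of 3703.5, 3738.5 and 1273 bp in the controls, and 117, 161 and 182 of the 186 were wider after GAF RNAi than in control replicate 1, 2 or 3. In the 96 shared by replicate 2 it was 2237.5 bp against 3297, 3422 and 1197 bp, and 23, 30 and 72 of the 96 were wider after GAF RNAi. In the 52 shared by replicate 3 it was 2158 bp against 5026, 4621 and 2137 bp, with 4, 2 and 24 of the 52 wider. GAF RNAi replicate 1 thus had a higher median than all 3 controls, replicate 2 a lower one than control replicates 1 and 2 and a higher one than control replicate 3, and replicate 3 a lower one than control replicates 1 and 2. Control replicate 3, with the shortest list, had the narrowest of the 3 controls.

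In whole lists the order of all widths was different. The median width was 625, 819 and 766 bp after GAF RNAi and 522, 593, 532.5 and 507 bp in control, so the groups did not overlap. The difference was 198 bp (exact permutation p 0.0571, the smallest possible for 4 against 3, adjusted over the 7 measures taken on whole lists 0.267), and 187.5 bp without control replicate 4 (exact permutation p 0.1, the smallest possible for 3 against 3). These lists are mostly autosomal, with 6.71%, 6.98% and 5.21% of regions on X after GAF RNAi and 6.72%, 9.37%, 43.4% and 9.23% in control. Autosomal medians were 617, 821 and 764.5 bp against 514, 566, 407.5 and 518 bp. On X the whole-list medians were 769.5, 785.5 and 795 bp and fell inside the control range of 402 to 1162 bp. List length also differed, and its part in the widths was not tested.

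**Figure D4:**
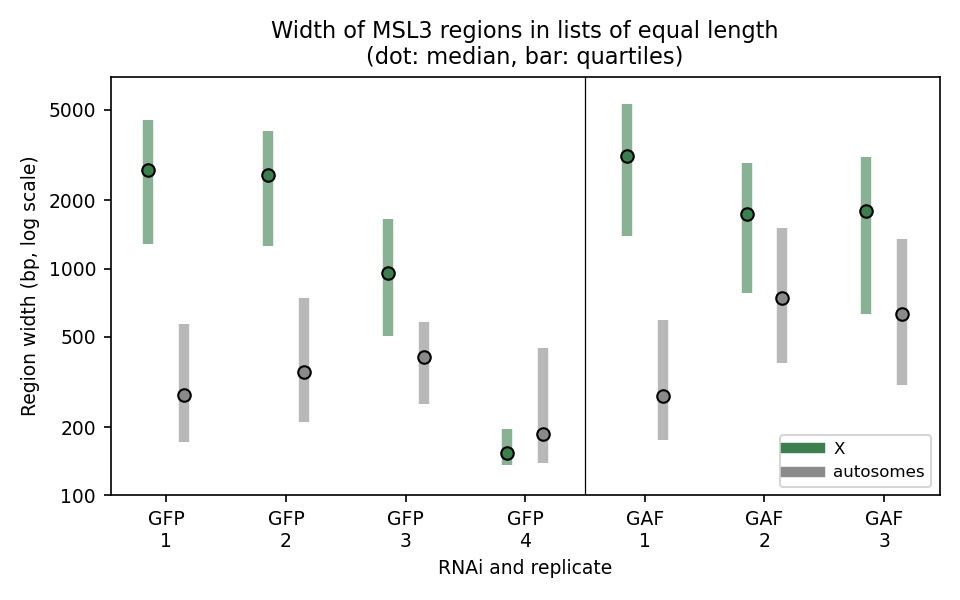
Width of MSL3 regions on X (green) and on autosomes (grey) in the strongest 668 regions of each library (horizontal axis), in bp on a log scale; dots are medians and bars run from the lower to the upper quartile over regions. X regions are the wider class in every library except GFP RNAi replicate 4 (154 against 187 bp), and among GAF RNAi libraries the gap is smaller in replicates 2 and 3 than in replicate 1.

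Sites of CLAMP and of GAF in control cells were used to sort the X regions. Control sites are peaks called in at least 2 of the GFP RNAi libraries of that antibody, 2751 for CLAMP with 766 on X and 3219 for GAF with 607 on X. A CLAMP site without a GAF site was held by 50.8%, 52.2% and 55.4% of the X regions of GAF RNAi replicates 1 to 3, which have 309, 136 and 65 such regions. In control replicates 1 to 4 these shares were 61.6%, 39.7%, 60.0% and 1.37%, of 307, 418, 290 and 73 X regions. The GAF RNAi values lay between those of control replicates 1 to 3, also in the libraries with few X regions. Their mean of 52.8% ± 2.34 (SD, n = 3) exceeded the control mean of 40.7% ± 28.0 (SD, n = 4) by 12.1 points (exact permutation p 0.629, adjusted 0.686). Against control replicates 1 to 3 alone it differed by −0.959 points (exact permutation p 1, adjusted 1). On autosomes at most 2.44% of regions in any of the 7 lists held a CLAMP site without GAF.

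Regions with a GAF site made up 14.6%, 9.56% and 7.69% of X regions after GAF RNAi and 11.4%, 9.09%, 5.86% and 4.11% in control. The groups overlapped, with means of 10.6% ± 3.55 (SD, n = 3) and 7.62% ± 3.26 (SD, n = 4). They differed by 2.99 points (exact permutation p 0.343, adjusted 0.686), and by 1.82 points without control replicate 4 (exact permutation p 0.6, adjusted 0.8). Most of these regions held CLAMP too, except in control replicate 4, where 1 held both sites and 2 held GAF alone. A GAF site without CLAMP was present in 1, 0 and 1 X regions of the GAF RNAi lists and in 2, 5, 1 and 2 of the control lists. Of the 304 X reference regions, 45 held a GAF site. GAF RNAi replicates 1 to 3 called 86.7%, 42.2% and 24.4% of these 45 and 81.9%, 37.5% and 16.6% of the 259 without one. Control replicates 1 to 3 called 84.4%, 95.6% and 80.0% of the 45 and 84.9%, 94.2% and 72.2% of the 259. The gap in favour of regions with GAF was 5.81 ± 1.76 points in the GAF RNAi libraries (SD, n = 3) and 2.16 ± 3.84 points across the controls (SD, n = 4), a difference of 3.65 points (exact permutation p 0.171), in a test added after the values were seen, and 2.93 points without control replicate 4 (exact permutation p 0.3). Control replicate 4 called 0 regions of either class, so its gap of 0 among the 4 controls is not an observed equality. A lower recovery at X regions with GAF than at those without was not seen in any of the 3 GAF RNAi libraries. These classes also differ in CLAMP. Of the 259, 81 held neither site, and 63.0%, 27.2% and 4.94% of these were called. Of the 45, 40 held CLAMP too, and 95%, 45% and 25% of these were called. Of the 178 with CLAMP alone, 90.4%, 42.1% and 21.9% were called. Each GAF RNAi library called 1 of the 5 with GAF alone, against 1, 5 and 4 in control replicates 1 to 3. GAF precipitations under GAF RNAi called 40 and 30 of the 52 GAF control sites inside these X reference regions, and those under GFP RNAi, which helped define the sites, called 51, 51 and 37.

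**Figure D5:**
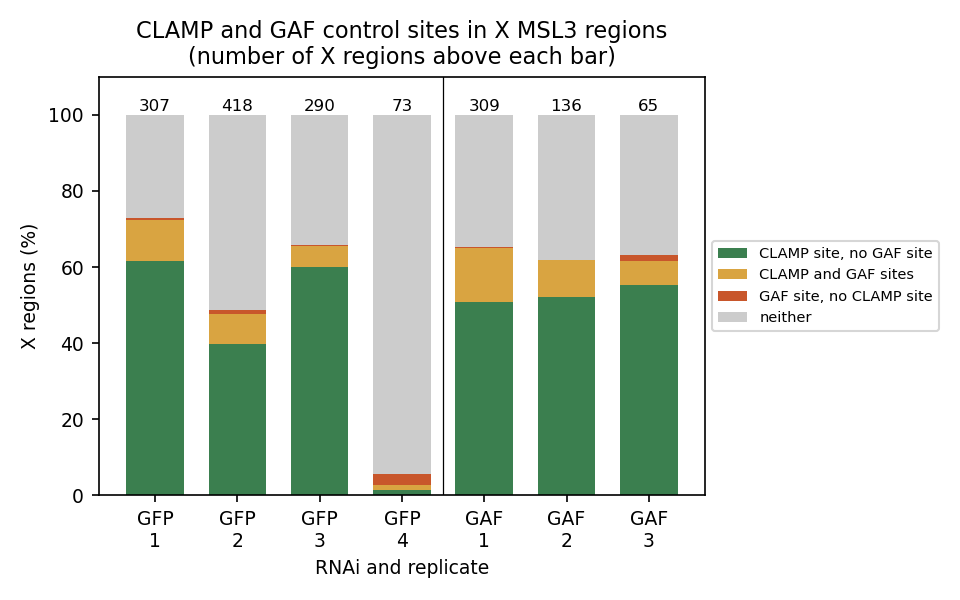
Share of X MSL3 regions (vertical axis, %) in the equal list of each library (horizontal axis) that hold a CLAMP site alone, sites of CLAMP and GAF, a GAF site alone or neither, as stacked bars with the number of X regions above. CLAMP sites without GAF make up 50.8% to 55.4% in the GAF RNAi libraries and 39.7% to 61.6% in GFP RNAi replicates 1 to 3, while GFP RNAi replicate 4 has 94.5% with neither.

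Seen from the sites, MSL3 regions of GAF RNAi replicates 2 and 3 covered fewer X sites of CLAMP than those of control replicates 1 to 3. X sites of CLAMP without GAF, 465 in number, were covered to 44.3%, 17.0% and 7.96% in GAF RNAi replicates 1 to 3, and to 48.8%, 41.3%, 38.7% and 0.215% in control replicates 1 to 4. The 301 X sites with both factors were covered to 14.3%, 4.32% and 1.66% against 9.63%, 10.3%, 6.31% and 0.332%. For the 311 X sites of GAF without CLAMP the values were 2.57%, 0.322% and 0.322% against 2.25%, 2.25%, 0.322% and 0.643%. Replicate 1 had the highest coverage of all 7 libraries at X sites with both factors and at X sites of GAF alone. At X sites of GAF without CLAMP, 0.322% is 1 site, the count of control replicate 3 too. Of the 1574 autosomal sites of GAF without CLAMP, 7, 14 and 28 were covered in GAF RNAi replicates 1 to 3 and 5, 5, 5 and 3 in control replicates 1 to 4, so the groups did not overlap, at no more than 1.78% of sites. Of the 932 autosomal sites of CLAMP without GAF, 7, 13 and 1 were covered after GAF RNAi and 5, 2, 2 and 1 in control. For the 1053 autosomal sites of both factors, the counts were 6, 5 and 1 against 6, 1, 3 and 8. These differences were not tested, and GAF RNAi replicates 2 and 3 also had more and wider autosomal regions than control replicates 1 to 3. Autosomal regions of the equal lists spanned 163, 679 and 718 kb in GAF RNAi replicates 1 to 3. In control replicates 1 to 4 they spanned 151, 135, 174 and 196 kb, and the site counts were not scaled by these bases.

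Along X, the median position of MSL3 regions in GAF RNAi replicates 1 and 2 was in the range of the controls, and that of replicate 3 was nearer the low-coordinate end. The median position was 11.3, 11.3 and 6.19 Mb in GAF RNAi replicates 1 to 3, and 11.7, 11.5, 9.14 and 12.1 Mb in the controls. The means of 9.59 ± 2.94 and 11.1 ± 1.35 Mb differed by −1.54 Mb (SD, n = 3 and 4, exact permutation p 0.343, adjusted 0.686), and by −1.20 Mb without control replicate 4 (exact permutation p 0.5, adjusted 0.8). Without GAF RNAi replicate 3 the sign turned, to 0.159 Mb. The first 5 Mb of X held 21%, 25% and 36.9% of the X regions after GAF RNAi and 19.5%, 21.3%, 33.1% and 17.8% in control. The second window of 5 Mb held 23.6%, 18.4% and 27.7% after GAF RNAi and 21.2%, 23.0%, 22.1% and 26.0% in control. In the third, all GAF RNAi values (23.6%, 27.9% and 23.1%) lay above all control values (22.1%, 22.0%, 21.4% and 21.9%) by a small margin, and the difference was not tested. These were 73, 38 and 15 regions against 68, 92, 62 and 16, so replicate 3 rests on 15 of its 65 X regions. The window is 5 Mb of an X of 22416760 bp up to the last base called. The fourth window held 25.6%, 22.8% and 9.23% against 29.6%, 27.0%, 18.3% and 24.7%. The last, shorter window held 6.15%, 5.88% and 3.08% against 7.49%, 6.70%, 5.17% and 9.59%. In the first window and the one before the last the libraries numbered 3 were the extremes of their group. Each of the 23 bins of 1 Mb held a region in every list except GAF RNAi replicate 3, where 3 bins were empty among 65 regions. Over these bins the number of regions in GAF RNAi replicate 1 had a Spearman coefficient of 0.723, 0.897 and 0.594 with control replicates 1, 2 and 3. Between control replicates 1 to 3 it was 0.859, 0.528 and 0.665. For GAF RNAi replicate 2 it was 0.329, 0.469 and 0.440, and for replicate 3 it was 0.112, 0.223 and 0.667. Bins share the library they come from and hold few regions in replicate 3, so these are descriptions.

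The autosomal regions of the equal lists were spread over several arms. In GAF RNAi replicate 2, 37.9% of the 668 regions were on 2L and 20.7% on 3L. In replicate 3 the arms 2L, 2R, 3L and 3R held 25.4%, 20.5%, 21.4% and 22.8%. In replicate 1 they held 15.4%, 10.8%, 10.5% and 16.3%, close to the 14.1%, 10.6%, 9.13% and 18.7% of control replicate 1. Control replicate 3 had 24.7% on 2L and 22.9% on 3L but 0 regions on 2R and 0 on 4. Of the autosomal regions, 55.2%, 13.7% and 23.2% were shorter than 300 bp in GAF RNAi replicates 1 to 3, and 53.5%, 46.4%, 32.3% and 67.9% in control. Nearly all lay away from both factors, with 95.0%, 94.2% and 95.2% of autosomal regions holding neither site after GAF RNAi and 96.1% to 98.0% in control.

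MSL3 after CLAMP RNAi is the most similar experiment, and at the length of its shortest list the X share was 99.0%, 57.3% and 22.3% after GAF RNAi and 29.1%, 40.8% and 23.3% after CLAMP RNAi. The means of 59.5% ± 38.4 and 31.1% ± 8.90 (SD, n = 3 each) differed by 28.5 points, which was within the spread (exact permutation p 0.4, smallest possible 0.1). Whole lists of CLAMP RNAi called 37, 14 and 128 of the 190 control X regions, against 190, 186 and 172 after GAF RNAi, but replicate 1 of CLAMP RNAi has only 984 regions and replicate 3 has 12136, so list length differs with the treatment.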

How the data were processed

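Peak lists of MSL3 ChIP-seq in S2 cells were analysed as deposited. Reads were processed with Bowtie and MACS2 2.1.1 on dm3, per the submitters' processing notes, and the options and control given to MACS2 are not given in the sources used here. The authors called regions in each library separately and deposited, per region, a fold enrichment (a ratio) and a −log10 p and −log10 q, which grow with the unknown depth and were used within a list only. Regions on 6 arms were kept. The 668 regions of highest fold (ties by −log10 p, then −log10 q) formed the equal lists. For GFP RNAi replicate 3 this is the whole list, for the others 2.01% to 6.32%. Regions sharing at least 1 bp were merged, an absent region took rank 669, and a merged region took its best rank.

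A library was the unit. Group means were tested by exact permutation, two-sided (35 arrangements of 4 against 3, 20 of 3 against 3), adjusted by Benjamini-Hochberg over 8 measures, so none could pass 0.05. Alternatives were other orders and list lengths, a −log10 p limit, a 50% overlap, all sequences, a replicate block and leaving out each library. Regions were named by rule: the 10 best mean ranks in GFP RNAi replicates 1 to 3 and in GAF RNAi, and up to 5 lost, gained, risen or fallen regions. The libraries, measures and naming rules were chosen with earlier results of these data known. The 190 control regions and the widths at shared regions were added later. Overlap and merging were tested on simulated data (2406 checks, 0 disagreements). Python 3.11.15, numpy 2.4.6, pandas 2.3.3, scipy 1.17.1 and matplotlib 3.10.9 were used.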

Additional observations from a re-analysis of the deposited data

How the results depend on the processing

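No alternative brought any of the 8 measures below a p of 0.05, which the design does not allow, and 95 of 108 alternatives kept the direction. The X share was lower after GAF RNAi in all of its 14. Leaving out 1 library gave −25.7 to −7.41 points for the X share, −13.2 to −0.355 points for fold rank, −45.7 to 304 bp for median width, −38.0 to −2.80 points for X reference regions, −0.959 to 19.1 points for CLAMP without GAF, 1.01 to 4.45 points for GAF, −2.41 to 0.159 Mb for position, 0.227 to 2.08 for the log2 number of regions (1.46 with all), 0 to 3 lost and 0 to 8 gained regions (8, 7 and 3 without GAF RNAi replicates 1, 2 and 3). With 1 list fewer, a region meets the rule for lost or gained more easily, so counts of 0 with all lists could only rise. The number of merged regions behind these counts was not kept, so no share is given. With regions of −log10 p of at least 2, width reversed to −176.5 bp, fold rank to 14.5 (18.8 also without GFP RNAi replicate 4, added after seeing the data), GAF share to −2.57 and the gap of recovery with GAF to −6.45 points. With the shortest MSL3 list length of the series, width was −173 bp and fold rank 24.7 points, without control replicate 2, which then held no autosomal region. In whole lists, X reference regions reversed to 20.5 points, CLAMP without GAF to −13.2 and the gap with GAF to −1.29, and 462 regions counted as gained. The share of these 462 among all merged whole-list regions was not computed, so they cannot be read as a gain of MSL3. Whole lists of GAF RNAi replicates 1 to 3 held 33316, 22922 and 18519 regions, and that of control replicate 3 only 668. The cause was not tested. Deviations of same-numbered libraries correlated by 0.277, −0.0861 and 0.113, and those of differently numbered ones by −0.255 to 0.133. These values do not settle whether the replicate numbers pair the libraries. With the replicate block, width was −45.7 bp and CLAMP without GAF −0.959 points, the only directions it turned; it uses numbers 1 to 3, and these are the values without GFP RNAi replicate 4, so leaving out that library turned them.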
